A study of Mus musculus with 12 samples.

Results

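Brd1, Trim33, Lrif1, Ddx31, Gcfc2, Cnp and Zpbp2 are 7 of the 12212 gene symbols measured in germinal center B cells of the spleen, and they were chosen by their log2 differences between treated and control libraries, which earlier results of these data had shown in both zones of the germinal center. Brd1, Ddx31, Gcfc2 and Cnp were higher and Trim33, Lrif1 and Zpbp2 lower in treated mice. The mice were NZBWF1/J, hybrids prone to an autoimmune disease that resembles lupus. The 12 libraries formed 4 groups of 3, namely dark zone treated, dark zone control, light zone treated and light zone control, each library made from 1000 cells sorted by flow cytometry. Treated mice were given CTLA4-Ig, a fusion protein that blocks CD28 costimulation, together with Anti-CD40L, an antibody against the molecule by which T cells engage CD40. They received 6 doses of 200 ug CTLA4-Ig and 6 doses of 250 ug of the antibody within 2 weeks, from an age of 18 weeks. Control mice of the same strain were untreated, and their age was not given in the sources used here. Neither were the sex of the mice, the use of a control immunoglobulin, the pooling of animals or whether the zones came from the same animals.

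The dark zone of a germinal center is where B cells proliferate and acquire antibody mutations, and the light zone is where they are selected by antigen and by T cell help through CD40. The 7 genes have roles in different processes. Brd1 encodes a bromodomain and PHD finger scaffold of histone acetyltransferase complexes, Trim33 a ubiquitin ligase that binds modified histones and acts in TGF-beta and SMAD signalling, and Lrif1 a nuclear protein known from human cells as a partner of HP1 and SMCHD1 in silent chromatin. Ddx31 encodes a DEAD-box RNA helicase of the nucleolus and Gcfc2 a protein of the intron-lariat spliceosome, both roles known from human cells. Cnp encodes a cyclic nucleotide phosphodiesterase best known from myelin-forming cells. Zpbp2 encodes a protein of the sperm acrosome that binds the egg coat.

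On the mm10 build, in GENCODE M21, Brd1 lies on chromosome 15 from 88687034 to 88734233, Trim33 on chromosome 3 from 103279293 to 103358775 and Lrif1 on chromosome 3 from 106684987 to 106736577. Ddx31 lies on chromosome 2 from 28840406 to 28905571 and Gcfc2 on chromosome 6 from 81923669 to 81959915. Cnp (100574904 to 100591729) and Zpbp2 (98551097 to 98558665) lie on chromosome 11. Exons of Gcfc2 share 1962 of their 7846 bases with Mrpl19 on the opposite strand, and exons of Cnp share 154 of 3639 bases with Dnajc7. Exons of Lrif1 share 1064 of 9192 bases with Gm38253, which lies on the same strand and was not among the measured symbols. The library kits do not keep the strand, so reads from the shared bases can come from either gene.

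Promoter sequences were found in the RefSeq table (GRCm38.p6) for 5 of the 7 genes, Brd1, Cnp, Ddx31, Zpbp2 and Lrif1. The 250 bases before the start site are shown for Brd1 and Cnp, which were higher in treated libraries, and for Zpbp2 and Lrif1, which were lower, so that both directions can be compared. They span chr15:88734220-88734469 (minus strand), chr11:100574689-100574938, chr11:98550847-98551096 and chr3:106684737-106684986 (plus strand). Capitals mark matches to the GC box.
Brd1: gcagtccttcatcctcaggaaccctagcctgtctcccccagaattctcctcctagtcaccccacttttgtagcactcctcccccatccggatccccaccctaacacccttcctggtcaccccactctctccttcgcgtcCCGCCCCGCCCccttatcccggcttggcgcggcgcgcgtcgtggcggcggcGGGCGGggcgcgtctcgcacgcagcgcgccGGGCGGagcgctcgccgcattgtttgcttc
Cnp: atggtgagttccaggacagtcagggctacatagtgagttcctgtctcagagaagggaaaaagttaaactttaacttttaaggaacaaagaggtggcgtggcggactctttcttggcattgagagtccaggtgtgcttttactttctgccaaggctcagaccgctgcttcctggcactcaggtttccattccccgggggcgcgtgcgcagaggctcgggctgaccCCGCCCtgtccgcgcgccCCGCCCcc
Zpbp2: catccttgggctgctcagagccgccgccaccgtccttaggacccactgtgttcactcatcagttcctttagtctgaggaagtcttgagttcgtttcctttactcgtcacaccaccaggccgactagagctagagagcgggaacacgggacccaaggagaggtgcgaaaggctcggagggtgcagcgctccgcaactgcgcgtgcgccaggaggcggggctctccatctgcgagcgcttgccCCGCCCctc
Lrif1: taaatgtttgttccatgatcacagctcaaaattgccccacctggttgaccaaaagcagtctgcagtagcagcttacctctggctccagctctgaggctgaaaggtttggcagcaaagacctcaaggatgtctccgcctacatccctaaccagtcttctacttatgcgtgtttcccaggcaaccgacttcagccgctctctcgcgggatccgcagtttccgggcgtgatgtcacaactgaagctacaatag

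Both strands were searched for the GC box (GGGCGG), the E box (CACGTG), the kappa B site, the core of an interferon response element and the core of a cAMP response element (TGACGT). The GC box occurred 4 times before Brd1, with an overlap between neighbouring matches, 2 times before Cnp, and 1 time before each of Zpbp2 and Ddx31. It was not found at the Lrif1 start shown, and occurs in 32.7% of 32851 promoter windows of this length. A further RefSeq start of Lrif1 had 1 GC box and 2 cAMP response cores, a core that 6.47% of windows hold. The E box, the kappa B site and the interferon core, present in 6.02%, 0.356% and 2.98% of windows, had no match in the windows of these 5 genes. The GC content was 68.4% before Brd1, 57.2% before Cnp, 70.4% before Ddx31, 62.4% before Zpbp2 and 51.6% at the Lrif1 start shown, against a median of 52.4% over all windows.

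Library totals ranged from 16032746 to 26837714 counts, and CPM values are counts scaled to library size with TMM factors. On that scale a floor of 3 counts corresponded to 0.0776 to 0.206 CPM, which covers counting error only. Replicates 1 and 2 of dark zone treated and replicate 2 of light zone treated libraries stood apart from the other 9 libraries, with counts for 12188 to 12195 symbols against 11384 to 11960, and the differences of the 7 genes and the partner lists are given with and without them. All 13 fixed markers of germinal center B cells were detected, at a summed 6586 to 7352 CPM in these 3 libraries and 6984 to 11546 CPM in the other 9. Fas (40.7 to 46.6 and 138 to 260 CPM), Gcsam and Cd79a were lower in these 3 libraries without overlap. S1pr2 (299 to 328 and 68.5 to 169 CPM) and Pax5 were higher, and the rest overlapped. Pax5 was at its library's floor of 0.175 CPM in light zone treated replicate 1. The 10 macrophage markers summed to 97.5 to 253 CPM in the 3 libraries and 15.8 to 75.2 CPM in the other 9. The 9 measured T cell markers summed to 17.9 to 62.7 and 6.24 to 64.6 CPM, the 5 plasma cell markers to 1310 to 2411 and 6431 to 11545 CPM, and the 4 neutrophil markers to 0.853 to 36.7 and 0 to 8.01 CPM. Most of the plasma cell sum was Jchain, at 1109 to 2154 CPM in the 3 libraries and 6206 to 11324 CPM in the other 9. Xbp1 (133 to 238 and 28.9 to 225 CPM), Sdc1 (1.38 to 5.07 and 0 to 9.76 CPM), Prdm1 and Irf4 overlapped between them. Of the T cell markers, Cd3e was at 2.61 to 10.6 and 0.658 to 1.99 CPM. Cd4 (0.916 to 5.38 and 0 to 0.152 CPM), Cd8a and Cd8b1 were also higher in the 3 libraries without overlap. Cd3d, Cd3g, Cd5, Lat and Cd28 overlapped. The 5 erythroid markers summed to 61.3 to 261 and 1.57 to 1388 CPM. The value of 1388 CPM was that of dark zone control replicate 1, and the rest of the other 9 libraries were at 1.57 to 9.24 CPM. In bulk libraries, fewer cells of a type and less RNA per cell cannot be told apart.

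The chromatin gene Brd1 was measured at 66.3, 34.3 and 43.5 CPM in dark zone treated libraries, against 9.12, 4.91 and 10 CPM in dark zone control libraries. In the light zone it was at 16.4, 42.9 and 16.7 CPM in treated and at 1.57, 0.574 and 3.1 CPM in control libraries. Every treated library of either zone lay above every control library. The log2 difference between treated and control was 2.58 (SE 0.75) in the dark zone and 3.85 (SE 0.79) in the light zone. Because this contrast chose the genes, differences between treated and control are given for the 7 genes as a description and without a test.

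Trim33 had 36.5, 26.1 and 28.2 CPM in treated and 83.5, 62.3 and 65.6 CPM in control libraries of the dark zone. It was at 33.2, 28 and 21.1 CPM in light zone treated and at 65.2, 126 and 73.3 CPM in light zone control libraries. The highest treated library (36.5 CPM) was below the lowest control library (62.3 CPM). The log2 differences of -1.22 (SE 0.39) in the dark zone and -1.69 (SE 0.40) in the light zone were the smallest in size among the 7 genes in the dark zone, and in the light zone only that of Cnp was smaller. The dark zone separation depended on the scaling: with plain library totals in place of TMM, Trim33 had 51.7, 35.2 and 26.6 CPM in treated and 76, 50.8 and 64.8 CPM in control libraries of the dark zone, and the groups overlapped. Plain totals moved the median log2 difference of all genes from 0.06 to 0.51 in the dark zone and from 0.10 to 0.39 in the light zone, and the log2 difference of Trim33 was then -0.75 (SE 0.43) in the dark zone.

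Lrif1 had 28.2, 18.1 and 76.7 CPM in treated and 160, 176 and 115 CPM in control libraries of the dark zone. Its light zone values were 36.2, 21 and 53.9 CPM in treated and 241, 167 and 97.1 CPM in control libraries. Treated and control libraries did not overlap, but the treated libraries were spread out, with the 3 libraries that stood apart at 18.1 to 28.2 CPM and the other 3 treated libraries at 36.2 to 76.7 CPM. The log2 difference was -1.88 (SE 0.59) in the dark zone and -2.19 (SE 0.60) in the light zone. Without the 3 libraries that stood apart it was -0.96 (SE 0.58) and -1.89 (SE 0.46), where the dark zone value rests on 1 treated library.

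Of the RNA-processing genes, Ddx31 had low counts. Dark zone treated libraries had 8.82, 9.73 and 4.49 CPM, against 0.343, 1.16 and 2.33 CPM in dark zone control libraries. In light zone treated libraries it was at 7.96, 12.6 and 18 CPM, and in light zone control libraries at 0.196, 0.631 and 0.232 CPM, which are 3, 11 and 5 counts, the lowest at its library's floor of 0.196 CPM. Treated libraries lay above control libraries in each zone and across zones. The log2 difference was 2.58 (SE 0.84) in the dark zone and 5.16 (SE 0.95) in the light zone.

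Gcfc2 had 12.3, 11.3 and 11.2 CPM in treated and 0.822, 0.708 and 3.29 CPM in control libraries of the dark zone. It was at 3.86, 9.8 and 21.1 CPM in light zone treated and at 0.458, 0.23 and 0.741 CPM in light zone control libraries, the last being 7, 4 and 16 counts. The groups did not overlap, the 3 dark zone treated libraries lay close together, and the light zone treated libraries were spread out. The log2 difference was 2.85 (SE 0.89) in the dark zone and 4.58 (SE 0.97) in the light zone.

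Cnp had 344, 454 and 259 CPM in treated and 83.1, 58 and 105 CPM in control libraries of the dark zone. It was at 97.8, 330 and 200 CPM in light zone treated and at 59.9, 76.8 and 84 CPM in light zone control libraries. The groups did not overlap within a zone, but light zone treated replicate 1 (97.8 CPM) lay below dark zone control replicate 3 (105 CPM). The log2 difference was 2.10 (SE 0.45) in the dark zone and 1.51 (SE 0.45) in the light zone. The 3 libraries that stood apart were at 330 to 454 CPM and the other 3 treated libraries at 97.8 to 259 CPM. Of 5 other fixed myelin markers 2 were measured here, Mbp and Mag, which summed to 15.1 to 19.8 CPM in the 3 libraries that stood apart, to 0.801 to 3.1 CPM in the other 3 treated libraries and to 0.131 to 15.3 CPM in the 6 control libraries. Their part in the values of Cnp was not tested.

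Zpbp2, the acrosome gene, had 2.74, 5.06 and 1.08 CPM in treated and 18.6, 24.2 and 7.32 CPM in control libraries of the dark zone. It was at 2.16, 2.25 and 0.516 CPM in light zone treated and at 54.6, 22 and 14.6 CPM in light zone control libraries. All 6 treated libraries were below all 6 control libraries, and the lowest treated value was 10 counts, above the floor. The log2 difference was -2.50 (SE 0.90) in the dark zone and -4.20 (SE 0.98) in the light zone.

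**Figure D1:**
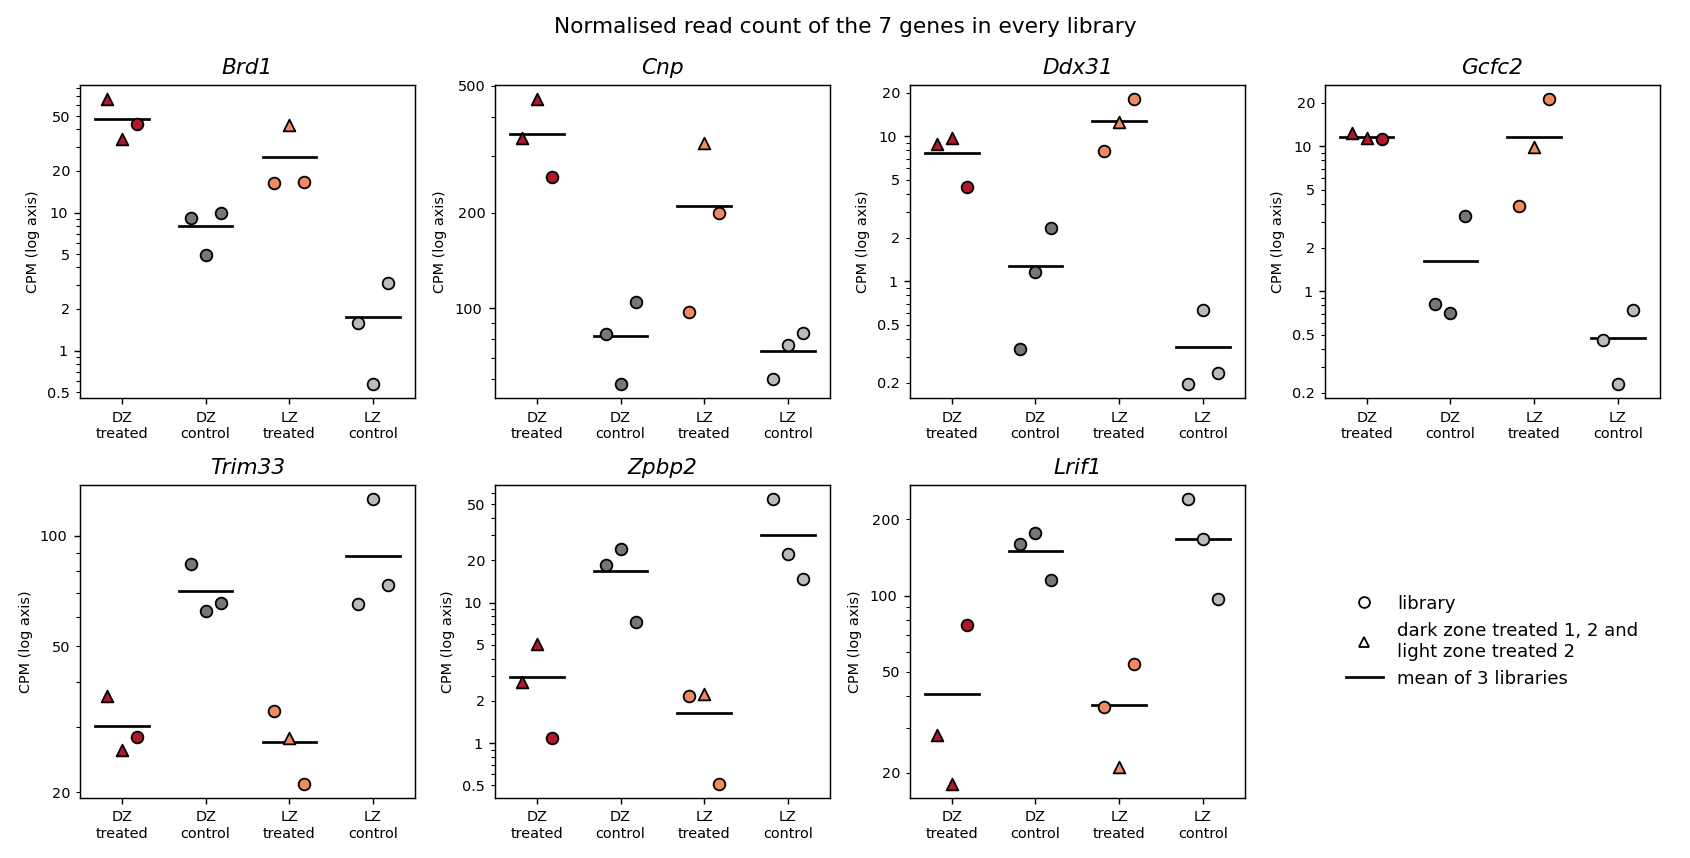
Normalised read counts (CPM, log axis) of the 7 genes in each of the 12 libraries, by zone (DZ, dark zone; LZ, light zone) and treatment; triangles are the 3 treated libraries that stood apart and bars the means of 3 libraries. Treated and control points do not overlap within a zone, for example Zpbp2 at 0.516 to 2.25 CPM in light zone treated and 14.6 to 54.6 CPM in light zone control libraries.

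In both zones 4 of the 7 genes (Brd1, Cnp, Ddx31 and Gcfc2) were higher and 3 (Trim33, Zpbp2 and Lrif1) lower in treated libraries with no overlap between groups. Over all 12081 tested genes, 12.5% were higher and 11.2% lower without overlap in the dark zone, and 5.82% and 5.49% in the light zone. In both zones at once, 1.55% were higher and 2.24% lower. Across both zones, Brd1, Ddx31 and Gcfc2 were higher in all 6 treated than in all 6 control libraries (0.811% of all genes) and Trim33, Zpbp2 and Lrif1 lower (1.01%). By edgeR's quasi-likelihood test with Benjamini-Hochberg adjustment, 0% of all genes passed an adjusted p of 0.05 for treatment in the dark zone (1075 at an unadjusted p under 0.05), in the light zone (889) or averaged over zones (2015). DESeq2 called 0.596%, 1.79% and 6.17% of them. Nothing was read from these shares about the 7 genes, which the contrast had chosen.

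Without the 3 libraries that stood apart, 1 dark zone and 2 light zone treated libraries were left, and all 7 genes kept their direction in both zones. The dark zone log2 difference of Zpbp2 was larger in size there (-3.93, SE 1.55) than with all libraries, and those of Cnp (1.68, SE 0.47) and Ddx31 (1.82, SE 1.12) were smaller. For Gcfc2 it was 2.81 (SE 1.21) in the dark zone and 4.69 (SE 1.14) in the light zone, and for Brd1 2.45 (SE 0.94) and 3.25 (SE 0.84). The log2 difference of Trim33 was -1.30 (SE 0.59) in the dark zone and -1.68 (SE 0.46) in the light zone. Light zone values were -4.48 (SE 1.17) for Zpbp2, 1.02 (SE 0.39) for Cnp and 5.19 (SE 1.06) for Ddx31. The 3 remaining treated libraries were above all 6 control libraries for Brd1, Ddx31 and Gcfc2 (2.07% of all genes) and below them for Trim33, Zpbp2 and Lrif1 (2.14%). In these 3 libraries the 10 macrophage markers summed to 25 to 75.2 CPM, against 15.8 to 53.5 CPM in the 6 control libraries, with C1qc at 0 in all 3 and Cd68 at 1.44 to 31.7 CPM. Their part in the differences of the 7 genes was not tested.

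**Figure D2:**
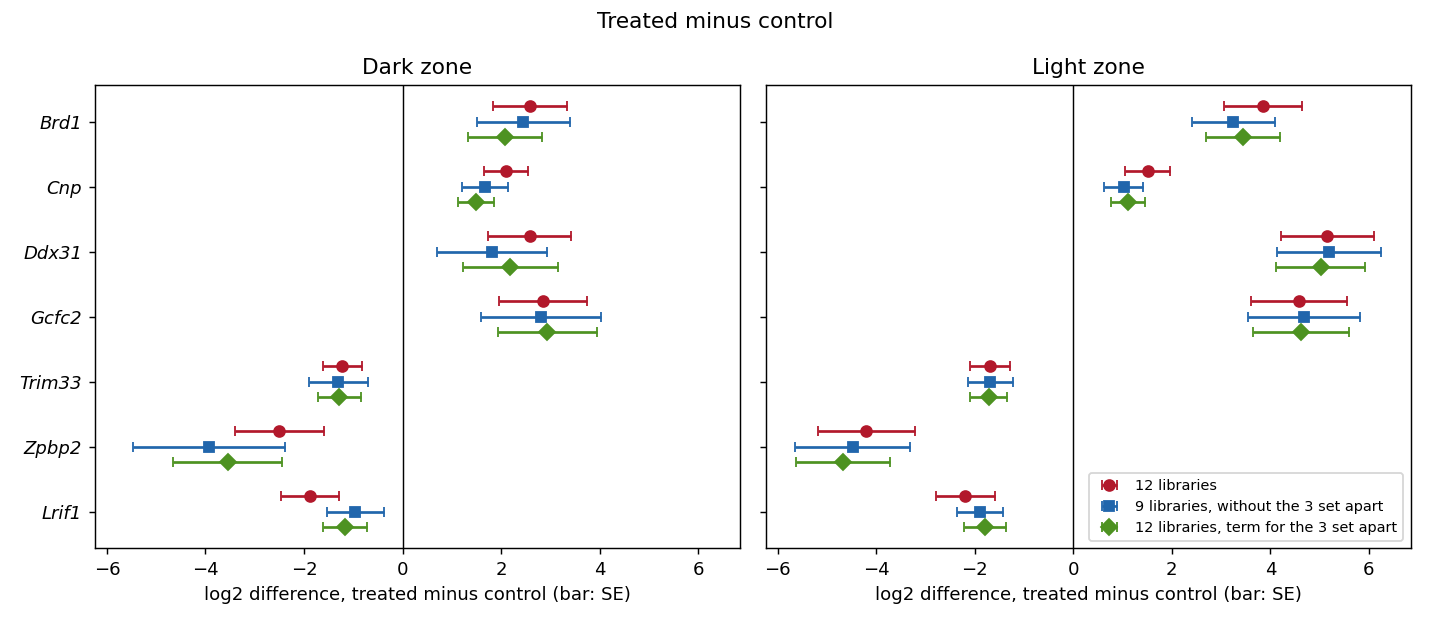
Log2 differences between treated and control libraries (points, with SE as bars) in the dark and the light zone, with all 12 libraries, with 9 libraries, and with all 12 and a term for the 3 libraries that stood apart. The direction of each gene is the same in the 3 fits; the dark zone value of Lrif1 moved most towards 0, to -0.96 with 9 libraries, and that of Zpbp2 away from it, to -3.93.

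Light and dark zone cells were compared next, a contrast that the choice of the genes did not use, although it is made from the same libraries. A low light zone control value enters both the zone difference and the treatment difference, so the zone values are not independent of the choice. No gene of the 7 passed it in control or in treated libraries (edgeR, adjusted p = 1 for each; 0% of all genes passed). In control libraries, Brd1 was at 0.574 to 3.1 CPM in light zone and 4.91 to 10 CPM in dark zone libraries without overlap, the only such gene of the 7; of all genes 4.47% were higher and 5.6% lower in this way. The log2 difference was -2.19 (SE 0.74, adjusted p = 1 by edgeR and 0.0823 by DESeq2), with each of the 3 light zone libraries below the dark zone ones. Ddx31 and Gcfc2 also had lower means in light zone control libraries, by log2 differences of -1.85 (SE 0.84) and -1.74 (SE 0.87), and their zones overlapped. Brd1 and Ddx31 were the only members at an unadjusted p under 0.05 (595 of all genes were), and DESeq2 called 0 of the 7 against 0.935% of all genes.

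For the other 4 genes the zones overlapped in control libraries, and their differences were about the size of the SE or smaller. The log2 difference between light and dark zone was -0.16 (SE 0.44) for Cnp, 0.32 (SE 0.39) for Trim33, 0.86 (SE 0.86) for Zpbp2 and 0.16 (SE 0.57) for Lrif1. In treated libraries the zones overlapped for all 7 genes; light zone libraries lay above dark zone ones without overlap for 2.24% of all genes and below them for 3.55%, DESeq2 called 0.00828%, and 249 genes but 0 of the 7 had an unadjusted p under 0.05 by edgeR. Brd1 differed there by -0.92 (SE 0.71), Cnp by -0.75 (SE 0.44) and Ddx31 by 0.74 (SE 0.80). Gcfc2 averaged 11.6 ± 8.74 CPM (SD, n = 3) in light zone treated and 11.6 ± 0.589 CPM (SD, n = 3) in dark zone treated libraries. Trim33, Zpbp2 and Lrif1 differed by -0.14 (SE 0.39), -0.84 (SE 0.87) and -0.15 (SE 0.57). A difference below the threshold does not show that the zones were alike.

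**Figure D3:**
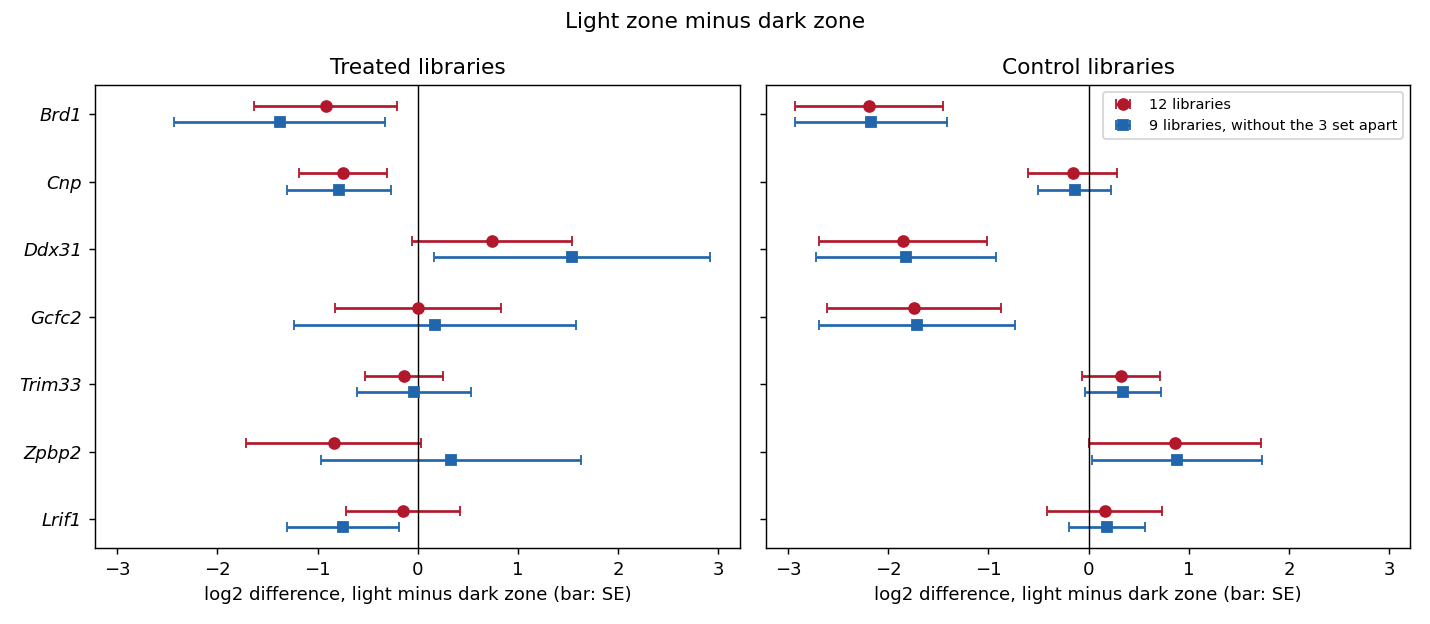
Log2 differences between light and dark zone libraries (points, with SE as bars) within treated and within control libraries, with all 12 libraries and with the 9 that remain without the 3 that stood apart. In control libraries Brd1 (-2.19), Ddx31 (-1.85) and Gcfc2 (-1.74) lie left of 0, and with 12 libraries the other 4 genes lie within about 1 SE of 0.

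The nearest protein-coding gene with measured counts on each side of the 7 genes, which the choice of members had not used, was examined next; the gaps ran from 45 bases (Gtf3c4 beside Ddx31) to 8646757 bases (Suclg1 beside Gcfc2). Of these 14 genes and the overlapping Dnajc7 and Mrpl19, none passed for treatment averaged over zones (edgeR, smallest adjusted p = 0.332; DESeq2 smallest adjusted p = 0.223). Ikzf3, which encodes the B cell transcription factor Aiolos and begins 5066 bases from Zpbp2 on the opposite strand, was at 175 to 242 CPM in the 6 treated and 158 to 256 CPM in the 6 control libraries. Its log2 difference averaged over zones was 0.04 (SE 0.19). Ormdl3, a regulator of sphingolipid synthesis on the other side of Zpbp2, was at 0 to 18.2 CPM in treated and 0 to 11.2 CPM in control libraries.

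Mrpl19, a mitochondrial ribosomal protein gene that shares exon bases with Gcfc2, was at 1.55 to 108 CPM in treated and 12.8 to 167 CPM in control libraries (log2 difference -0.01, SE 0.78). Dnajc7, a co-chaperone gene that overlaps Cnp, was at 91.8 to 169 CPM in treated and 54.2 to 106 CPM in control libraries (log2 difference 0.50, SE 0.26). Gtf3c4, a subunit of a transcription factor of RNA polymerase III whose start lies 46 bases from that of Ddx31, was at 0 to 20.8 CPM in treated and 0.202 to 52.3 CPM in control libraries. The treated and control ranges of these 3 genes overlapped. Beside Trim33 and Lrif1, Bcas2 (-0.84, SE 0.42), Hipk1 (-0.48, SE 0.43), Dram2 (-0.71, SE 0.55) and Cd53 (-0.80, SE 0.47) had negative log2 differences that did not pass; without the 3 libraries that stood apart, they were -0.16, -0.30, -0.01 and -0.04.

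**Figure D4:**
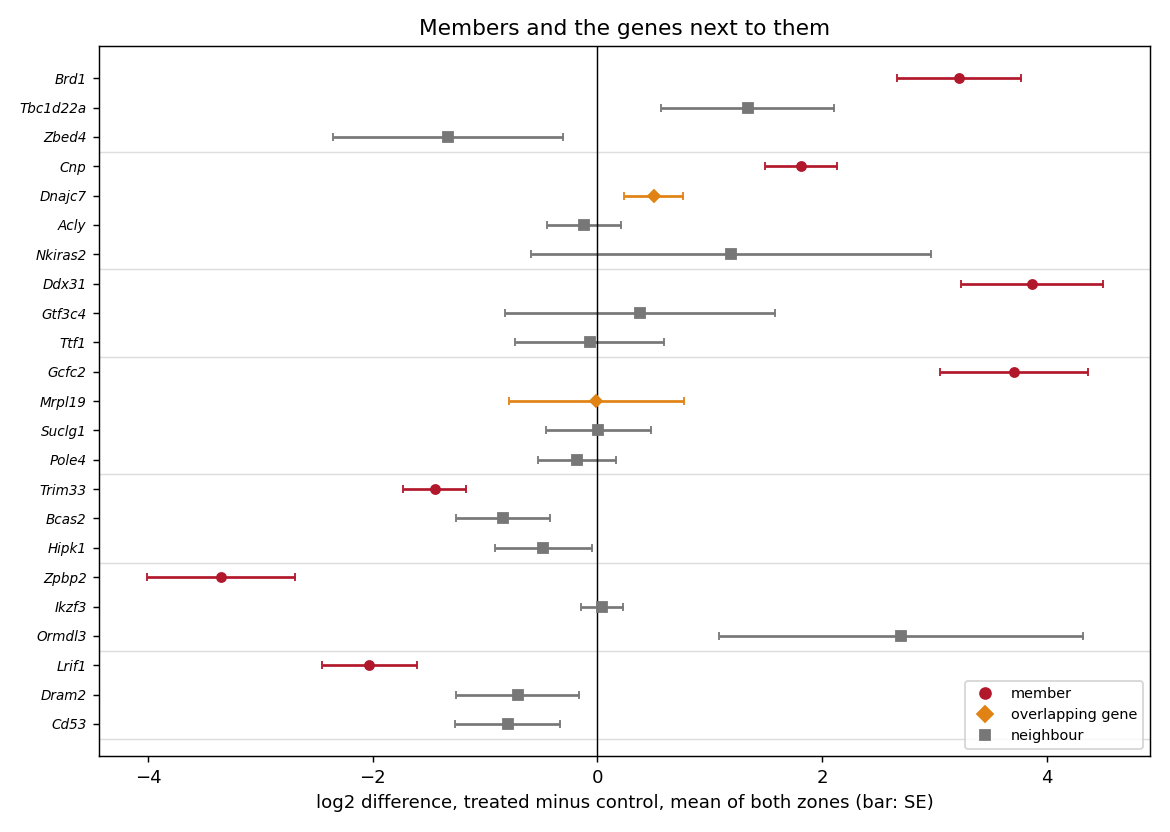
Log2 differences between treated and control libraries averaged over zones (points, with SE as bars) for each of the 7 genes, the protein-coding genes that overlap them and the nearest measured gene on each side. Ikzf3 beside Zpbp2 lies at 0.04, and Mrpl19, which overlaps Gcfc2, at -0.01.

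Partners of the 7 proteins were examined by fixed lists, of which 0 genes passed edgeR in any comparison. For treatment averaged over zones, all 12081 tested genes had 6515 higher and 5566 lower values and a median log2 difference of 0.11, and without the 3 libraries that stood apart 5278 were higher and 6739 lower (median -0.11). Of 11 other genes of the BRPF and HBO1 acetyltransferase complexes 6 were higher and 5 lower (median 0.15), and without the 3 libraries that stood apart 3 were higher and 8 lower (median -0.22). Kat7, the catalytic subunit that binds BRD1, was at 5.85 to 51.6 CPM in the 6 treated and 2.93 to 48.3 CPM in the 6 control libraries (log2 difference 0.48, SE 0.64, and -0.22, SE 0.92, without the 3 libraries that stood apart). Of 6 other bromodomain genes 5 were higher (median 0.82), and without the 3 libraries that stood apart 4 were (median 0.34). Brd3, a reader of acetylated histones, was at 21 to 111 CPM in the 6 treated and 6.25 to 26.4 CPM in the 6 control libraries (log2 difference 2.31, SE 0.51, edgeR adjusted p = 0.222, DESeq2 adjusted p = 0.000432). Its log2 difference was 1.42 (SE 0.52) without the 3 libraries that stood apart.

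Of 8 measured TIF1 and SMAD genes listed for Trim33, 5 were higher and 3 lower (median 0.72), and without the 3 libraries that stood apart 2 were higher and 6 lower (median -0.50). Spi1, which encodes the transcription factor PU.1, was at 37.5 to 161 CPM in treated and 3.56 to 74.8 CPM in control libraries (log2 difference 1.54, SE 0.59, edgeR adjusted p = 0.251, DESeq2 adjusted p = 0.0937). Skil, an inhibitor of SMAD signalling, was at 2.53 to 11.8 CPM in treated and 5.57 to 61.2 CPM in control libraries (log2 difference -1.63, SE 0.62, edgeR adjusted p = 0.246, DESeq2 adjusted p = 0.0589). Of 9 silencing genes listed for Lrif1, 4 were higher and 5 lower (median -0.06), and without the 3 libraries that stood apart 6 were higher and 3 lower (median 0.23). Suv39h1, a histone methyltransferase, differed by 0.74 (SE 0.34, edgeR adjusted p = 0.3, DESeq2 adjusted p = 0.175). Without the 3 libraries that stood apart, the log2 differences were 1.18 for Spi1, -1.69 for Skil and 0.58 for Suv39h1.

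Of 12 other nucleolar DEAD-box helicase genes 10 were higher and 2 lower (median 0.52), and without the 3 libraries that stood apart 5 were higher and 7 lower (median -0.18). Ddx24 was at 44.1 to 209 CPM in treated and 33.5 to 121 CPM in control libraries (log2 difference 1.31, SE 0.39, edgeR adjusted p = 0.229, DESeq2 adjusted p = 0.0368). Of 7 intron-lariat genes listed for Gcfc2, 3 were higher and 4 lower (median -0.14), and without the 3 libraries that stood apart 2 were higher and 5 lower (median -0.59). Tfip11, known from human cells as a splicing partner of GCFC2, had 24.6, 22.1 and 18.2 CPM in treated and 0.411, 0 and 1.49 CPM in control libraries of the dark zone. In the light zone it was at 0.468, 34.5 and 7.9 CPM in treated and 0.131, 5.39 and 4.31 CPM in control libraries, so treated and control libraries overlapped there (averaged log2 difference 3.60, SE 1.25, edgeR adjusted p = 0.233, DESeq2 adjusted p = 0.0177). Dhx15, the helicase of lariat release, was at 90.4 to 161 CPM in treated and 132 to 337 CPM in control libraries (log2 difference -0.80, SE 0.28, edgeR adjusted p = 0.235, DESeq2 adjusted p = 0.0826). Without the 3 libraries that stood apart, the averaged log2 differences were 0.91 for Ddx24, 2.61 for Tfip11 and -0.59 for Dhx15. In the light zone that of Tfip11 was then 0.36, against 2.12 with all libraries.

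Of 6 RNA end repair genes listed for Cnp 4 were higher and 2 lower (median 0.26), and without the 3 libraries that stood apart 5 were higher and 1 lower (median 0.35). Rtcb, the tRNA ligase, was at 42.6 to 170 CPM in treated and 18.5 to 89.8 CPM in control libraries (log2 difference 1.42, SE 0.38, edgeR adjusted p = 0.222, DESeq2 adjusted p = 0.0151). Its log2 difference was 0.84 (SE 0.44) without the 3 libraries that stood apart. Of 6 acrosome genes listed for Zpbp2, 1 was analysed here, its paralog Zpbp. Zpbp was at 0.543 to 3.48 CPM in treated and 0.916 to 31.2 CPM in control libraries, with the highest control value, 31.2 CPM, in light zone control replicate 2 (log2 difference -2.65, SE 0.87, edgeR adjusted p = 0.232, DESeq2 adjusted p = 0.0271), and without the 3 libraries that stood apart the log2 difference was -2.24 (SE 1.38).

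The genes with the most similar pattern to each member were named by Pearson r of log2 CPM over the 12 libraries, which share zone, treatment and the 3 libraries that stood apart, so the values are a description. For Brd1 they were Rapgef3 (0.948), Traf5 (0.931), which encodes an adaptor of CD40 and related receptors, and Zdhhc8 (0.920). Traf5 had 67.9, 51.7 and 127 CPM in treated and 39, 12.7 and 43.2 CPM in control libraries of the dark zone. Its light zone values were 73.6, 54.4 and 63.7 CPM in treated and 7.78, 3.67 and 17 CPM in control libraries. For Cnp they were the transcription factor gene Ets1 (0.963), Setd5 (0.947) and the B cell tetraspanin gene Cd37 (0.947). For Ddx31 they were the Src family kinase gene Fyn (0.952), Cpe (0.948) and Vgll4 (0.947), and for Gcfc2 they were Klhdc3 (0.969), Shkbp1 (0.961) and Chst12 (0.954).

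For Trim33 the most similar were Rsrp1 (0.912), Krit1 (0.888) and 5430402O13Rik (0.880). For Zpbp2 they were 2900076A07Rik (0.919), Dr1 (0.914) and Rps19bp1 (0.912), and for Lrif1 9830132P13Rik (0.965), Olfr521 (0.960) and Exosc2 (0.953), a subunit of the RNA exosome. With the 3 libraries that stood apart left out, these 21 values ran from 0.845 (Setd5 with Cnp) to 0.983 (Traf5 with Brd1).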

How the data were processed

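RNA-seq of sorted germinal center B cells was deposited by the authors in the form of expected counts per gene symbol, not scaled to a common total. BWA and the build mm10 are named in the submitters' processing notes; for the version, counting program, annotation and gene filter, none is stated there or in the labels. cDNA was made with a SMART-Seq kit and libraries with Nextera XT, per the labels' protocols. Blank cells were read as 0. Deposited values midway between whole numbers were rounded up; they occurred in 6 of 12 libraries for Cnp and for Lrif1, in 2 for Trim33 and in 1 for Zpbp2, all with at least 2 curated RefSeq transcripts, and in 0 for Brd1, Ddx31 and Gcfc2, each with 1. The labels do not state how they arose.

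Genes were tested with edgeR 4.0.16 (R 4.3.3; quasi-likelihood, robust, TMM, filterByExpr with minimum count 10 and total 15; 12081 genes, the 7 members included). A single fit of 12 libraries had a term per group; p-values are two-sided and Benjamini-Hochberg adjusted over all genes. SE is the absolute log2 difference divided by the square root of F. Log2 CPM used a prior count of 2. Labels do not state that replicates were separate mice, so p-values measure the spread between libraries. DESeq2 1.42.0 was an alternative, and the fits were tested on simulated data, in which DESeq2 recovered more changed genes than edgeR and also called more genes that had been left unchanged. The members and lists were chosen with earlier results of these data known. Named were all members, their neighbours, up to 4 genes per list by smallest p for treatment averaged over zones and the 3 most similar genes; Kat7 was among these 4. The lists were genes of the members' complexes and markers of germinal center B cells and of macrophages, T cells, plasma cells, neutrophils, erythroid and myelin-forming cells. Plain library totals were added as an alternative after seeing the data.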

Additional observations from a re-analysis of the deposited data

How the results depend on the processing

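EdgeR called 0 genes in each of the 5 comparisons under all settings, while DESeq2 called 113 for zone in control libraries, 1 for zone in treated libraries, 72 for treatment in the dark zone, 216 in the light zone and 745 averaged over zones. Leaving out any single library, the count by edgeR stayed at 0. The log2 differences between treated and control libraries of the 7 genes kept their direction under every alternative and every left-out library. With 1 library left out, 3 values shifted by at least the SD of that gene's log2 CPM within groups. In the dark zone these were 3.91 for Gcfc2 (without dark zone control replicate 3) and -2.70 for Lrif1 (without dark zone treated replicate 3). In the light zone it was -1.34 for Trim33 (without light zone control replicate 2). Genes with a larger SD could shift further, and over all alternatives the light zone value of Brd1 ran from 3.24 to 4.56. Those between zones, none of which passed the threshold, changed sign in 12 cases. Without the 3 libraries that stood apart, Gcfc2 was at 0.17 and Zpbp2 at 0.33 in treated libraries. With a library left out, the values that turned ran from 0.06 for Cnp (-0.35 to 0.06), -0.02 for Trim33 (-0.02 to 0.50) and -0.19 for Lrif1 (-0.19 to 0.44) in control libraries, to 0.41 for Gcfc2 (-0.78 to 0.41), 0.01 for Trim33 (-0.30 to 0.01) and 0.68 for Lrif1 (-0.52 to 0.68) in treated libraries, with the range over all left-out libraries in parentheses. The cause was not tested. With plain library totals Trim33 differed by -0.75 in the dark zone and -1.07 averaged over zones. With the replicate number as a block edgeR also called 0 genes, and it changed no call. The numbers were not taken to pair the libraries, since no pairing is stated in the labels. Deviations of same-numbered libraries from their group means correlated over 0.1 in 3 of 12 pairs (-0.307 to 0.539). Each of these 3 joined a light and a dark zone library of the same treatment (0.539, 0.295 and 0.116). The 12 pairs include treated with control libraries, which cannot share a mouse. Treated replicates 1 and 2 include the libraries that stood apart, so these values cannot decide whether the zones were paired. Low counts limit Ddx31 and Gcfc2 in control libraries.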

Other observations

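Some of the 7 genes also varied together among the 6 untreated libraries, where treatment plays no part, although zone does. Over these 6 libraries Pearson r of log2 CPM was 0.861 for Zpbp2 with Lrif1, 0.843 for Brd1 with Gcfc2 and -0.882 for Cnp with Zpbp2. Trim33 went with neither Zpbp2 (0.011) nor Lrif1 (0.026) there. Over all 12 libraries r was 0.851 and 0.786, but these genes were all chosen by treatment differences of the same direction. A positive r over treated and control libraries therefore follows from the choice. These values describe 6 and 12 libraries that share group and scaling, and were chosen after all 21 pairs had been seen. Control replicate 3 of each zone had counts for the most symbols (dark zone 11960, light zone 11757, other control libraries 11384 to 11470). In each zone it also had the highest Brd1, Gcfc2 and Cnp and the lowest Zpbp2 and Lrif1 of the control libraries. The part of these libraries in the r values was not tested, nor was the share of all gene pairs with such r.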
